A study of Mus musculus with 15 samples.

Results

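Tubulin isotypes of the mouse retina were followed through oxygen-induced retinopathy (OIR) and through normal retinal maturation. The set held 10 genes, namely the alpha-tubulins *Tuba1a*, *Tuba1b*, *Tuba1c* and *Tuba4a*, the beta-tubulins *Tubb2a*, *Tubb2b*, *Tubb3*, *Tubb5* and *Tubb6*, and the gamma-tubulin *Tubg1*. Every probe that the platform annotation assigns to one of these symbols was taken, which gave 11 probes of 9 genes out of 29922 probes. *Tubb2b* and *Tubb5* had 2 probes each, and *Tuba1b* had 0. The genes were chosen from their log2 ratios in 2 comparisons, the hypoxic retina against its age-matched control and the young against the adult retina. For these comparisons, and for the comparison likely to share their RNA pools, member values are given below as a description with no p-value. Calls at the threshold are named and counted there beside the share of all probes, and nothing is read from them.

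RNA of C57BL/6J neural retina was hybridized to 2-colour whole-genome arrays, with 15 arrays in 5 comparisons of 3 arrays each. The OIR pups were placed in 75% oxygen at postnatal day 7 (P7) and returned to room air at P12, whereas the normal pups stayed in room air from birth. P8-O was OIR retina after 1 day of oxygen, P12-O after 5 days of oxygen, and P13-O after 1 day back in room air, a state of relative hypoxia. Each was set against normal retina of the same age (P8-N, P12-N, P13-N), P13-O was also set against normal retina at P9 (P9-N), and P9-N was set against normal adult retina at P30 (P30-N). Each side of an array was 1 pool of 10 retinas from 5 mice of 1 litter, and no genotype or agent other than the oxygen differed between the groups. Values are the deposited log2 ratios, given with the first named retina on top, so that in P13-O/P13-N, for example, a log2 ratio above 0 is a higher mRNA level in P13-O. The direction of P13-O/P9-N rests on the order of the channels in the sample labels and is the likely one.

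Microtubules are hollow fibers of alpha-tubulin and beta-tubulin pairs, and a ring built on gamma-tubulin seeds their growth. The isotypes of one class are nearly identical along most of their length and differ mainly in an acidic tail, where enzymes remove or add tyrosine and glutamate. Growing neurons use a set rich in *Tuba1a*, *Tubb2a*, *Tubb2b*, *Tubb3* and *Tubb5* to extend axons and dendrites, and these 5 are called the young-neuron genes below, while *Tubb6* is sparse in neurons and is better known from non-neuronal tissues.

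The members lie on 7 mouse chromosomes, and some are neighbors. By the RefSeq annotation of GRCm38.p6, *Tuba1a*, *Tuba1b* and *Tuba1c* are on chromosome 15, with 0 genes between *Tuba1a* and *Tuba1b* and 0 protein-coding genes between *Tuba1a* and *Tuba1c*. *Tubb2a* and *Tubb2b* are on chromosome 13 with 0 protein-coding genes between them, *Tuba4a* is on chromosome 1, *Tubb3* on 8, *Tubg1* on 11, *Tubb5* on 17 and *Tubb6* on 18. Because the coding parts of these genes are so similar and the probe sequences were not used here, a probe may also have caught RNA of a close isotype, and each gene's value carries that uncertainty.

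The promoter parts of 4 members are shown because these members stood for the different patterns described below, *Tuba4a* for the adult form, *Tuba1a* and *Tubb5* for the young-neuron genes and *Tuba1c* for the alpha-tubulin that moved least between P9-N and P13-O. Each is the RefSeq sequence of GRCm38.p6 for the 200 bases before the annotated start, read 5′ to 3′ on the gene's own strand, and capitals mark the letters ACGTG or GCGTG on either strand, the core to which hypoxia-inducible factors bind. They cover chr1:75219295-75219494 (minus strand) for *Tuba4a*, chr15:98953502-98953701 (minus strand) for *Tuba1a*, chr15:99029691-99029890 (plus strand) for *Tuba1c* and chr17:35838302-35838501 (minus strand) for *Tubb5*.
Tuba4a: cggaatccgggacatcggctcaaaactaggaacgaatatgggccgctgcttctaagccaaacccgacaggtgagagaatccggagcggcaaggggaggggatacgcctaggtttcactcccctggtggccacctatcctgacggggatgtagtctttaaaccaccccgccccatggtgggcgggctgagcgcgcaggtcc
Tuba1a: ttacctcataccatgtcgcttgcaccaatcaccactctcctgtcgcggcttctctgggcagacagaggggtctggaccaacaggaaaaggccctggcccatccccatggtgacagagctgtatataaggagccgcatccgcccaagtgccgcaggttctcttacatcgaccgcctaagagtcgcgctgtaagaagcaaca
Tuba1c: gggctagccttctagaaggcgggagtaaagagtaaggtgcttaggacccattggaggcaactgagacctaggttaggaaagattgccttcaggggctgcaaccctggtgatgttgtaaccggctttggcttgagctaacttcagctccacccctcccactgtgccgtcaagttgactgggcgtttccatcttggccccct
Tubb5: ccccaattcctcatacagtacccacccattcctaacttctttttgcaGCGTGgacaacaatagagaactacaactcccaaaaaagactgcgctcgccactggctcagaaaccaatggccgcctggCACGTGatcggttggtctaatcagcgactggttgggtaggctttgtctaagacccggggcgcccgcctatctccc

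Of the 10 members, 7 had a promoter in that table (*Tubb2b*, *Tubb6* and *Tubg1* had none), each as a window of 250 bases before and 50 bases after the start. ACGTG stood in 1 of the 7 windows, that of *Tubb5*, where the palindrome CACGTG holds it on both strands, and in 19.6% of all 32851 windows. GCGTG stood in 5 of the 7 and in 32.4% of all windows, and the 2 words do not overlap in the *Tubb5* sequence shown. The CCAAT word was found in 4 of the 7 and 37.4% of all, GGGCGG in 6 of the 7 and 35.7% of all, and TATAAA in 1 of the 7 (*Tubb2a*) and 13.6% of all, each counted on both strands. These matches describe letters and not bound sites.

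The arrays held 12008 to 21189 values, and 10 of the 11 tubulin probes had a value on all 15 arrays, as 9839 of all probes did. *Tuba4a* was the exception, blank on 2 of the P8 arrays and on 1 of the P9-N/P30-N arrays. Replicate arrays of P9-N/P30-N correlated at r = 0.83 to 0.90 over all probes, those of P13-O/P9-N at 0.42 to 0.61, those of P12-O/P12-N at 0.34 to 0.52, those of P13-O/P13-N at 0.04 to 0.46 and those of P8-O/P8-N at -0.20 to 0.21. The tissue label was checked against 15 rod genes: 14 were tested in every comparison, and 11 of them were lower in P9-N than in P30-N. In the direction taken for P13-O/P9-N, 5 of the 14 were higher and 0 lower in P13-O than in P9-N, and the reverse direction would turn the sign of every value of that comparison.

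*Tubb6* had the largest difference between P13-O and P13-N among the members. P13-O retina had been through 5 days of oxygen and 1 day of room air, and this comparison does not separate them. In P13-O/P13-N the *Tubb6* log2 ratio was 1.58, 1.73 and 0.84 on the 3 arrays. All 3 arrays were well above 0, and replicate 3 gave the lowest value. The mean of 1.38 (SE 0.15, n = 3) was a 2.61-fold higher level, the 9th highest of 14436 probes, and without replicate 3 it was 1.65. *Tubb6* was the only 1 of the 11 tubulin probes to pass an adjusted p of 0.05 with a 1.5-fold change in that comparison, where 0.575% of all probes passed as higher and 0.159% as lower, and since the choice of members used this comparison nothing is read from the count. Without the fold cutoff 2 probes passed as higher and 1 as lower, beside 0.963% and 0.547% of all probes. A fit of the 3 arrays alone and the one-class SAM statistic did not pass *Tubb6*.

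The choice of members did not use the hyperoxic phase, though earlier results of these data were known when it was made. In that phase *Tubb6* had the opposite sign. In P8-O/P8-N its log2 ratio was -0.48, -0.60 and -0.22, with a mean of -0.43 (SE 0.15, n = 3, limma adjusted p = 0.305). In P12-O/P12-N it was -0.54, -0.62 and -0.42, with a mean of -0.53 (SE 0.15, n = 3, limma adjusted p = 0.0521). All 6 arrays of oxygen-exposed retina were below 0, but neither mean passed the threshold. With 1 array left out at P8, the mean lay between -0.54 and -0.35 (limma adjusted p = 0.187 to 0.627). At P12 the limma adjusted p lay between 0.0479 and 0.0718 under the other settings that kept all 3 arrays. With 1 array left out at P12 it was 0.147 to 0.207. At P8 array weights gave -0.55 with an adjusted p of 0.0275. All these changes fell short of 1.5-fold.

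Of the 10 tubulin probes tested at P8, 0 passed in either direction, beside 0.161% of all probes as higher and 0.242% as lower, and of the 11 tested at P12, 0 passed, beside 0.454% as higher and 0.817% as lower. Over all probes 1518 at P8 and 3877 at P12 had an unadjusted limma p under 0.05. SAM called 0 tubulin probes at both ages, but its share of all probes is not given here, so nothing is read from that. The 10 probes other than *Tubb6* had means between -0.15 and 0.33 in these comparisons. The difference between P12 and P8 was tested for 10 probes in the same limma fit, and 0 passed, beside 0.0369% of all probes. For *Tubb6* that difference was -0.09 (SE 0.21, adjusted p = 0.860).

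**Figure D1:**
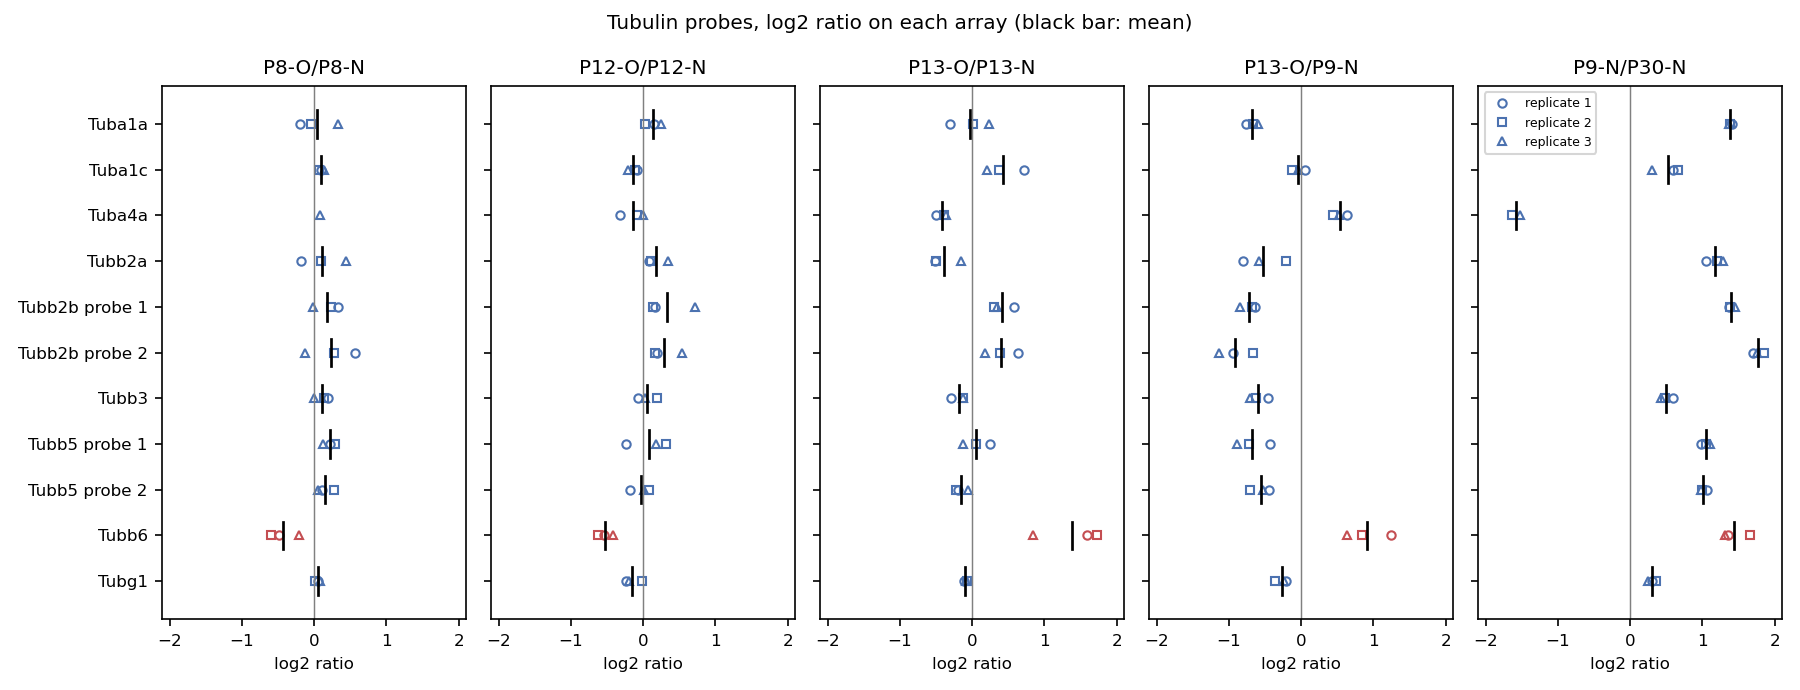
Log2 ratio (x axis) of the 11 tubulin probes (rows) on each array of the 5 comparisons (panels), with a symbol per replicate and a black bar at the mean. *Tubb6*, in red, lies left of 0 on all 6 arrays of oxygen-exposed retina and right of 0 on the other 9.

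The young-neuron genes lay apart from *Tubb6* on every OIR array. *Tubb6* was below all 5 of them on each of the 6 arrays of P8-O and P12-O. On each of the 6 arrays with P13-O, which likely share pools, it was above all 5. Its distance from their median was -0.57 on average at P8, -0.68 at P12 (-0.77 to -0.62), 1.54 in P13-O/P13-N (0.93 to 1.87) and 1.62 in P13-O/P9-N. In P9-N/P30-N *Tubb6* and the young-neuron genes were all on the side of P9-N. The distance of *Tubb6* from the young-neuron median there was 0.26 (0.02 to 0.46). *Tubb3* was farther off, with a mean of 0.50 against 1.44 for *Tubb6*, and on replicate 2 *Tubb6* was above all 5. These distances compare changes and not amounts of the isotypes, and they carry no test, because the genes were grouped with their values known.

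**Figure D2:**
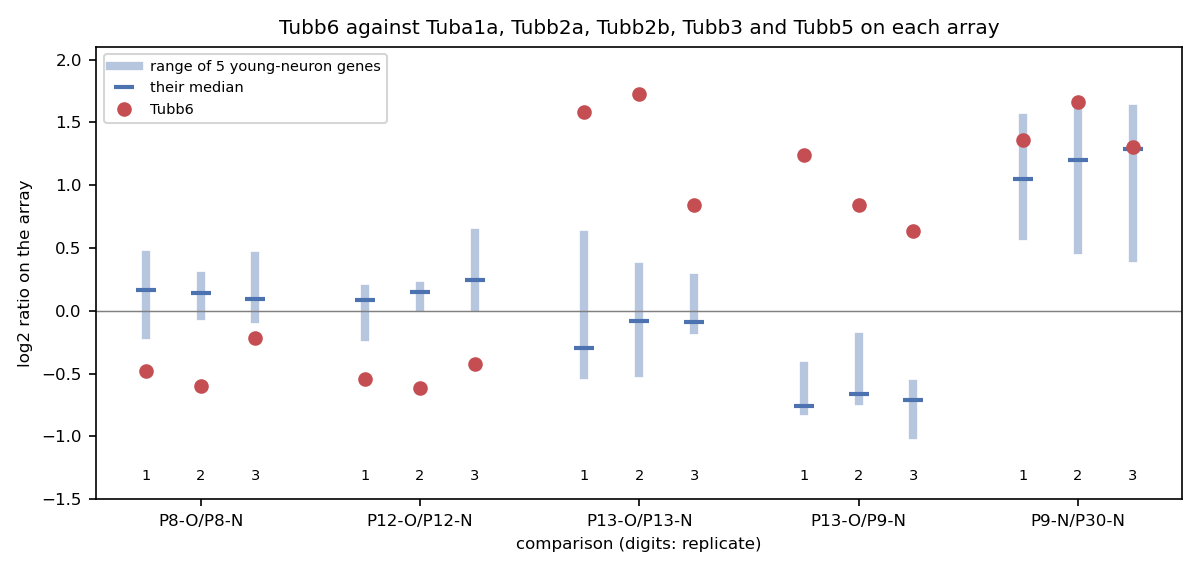
Log2 ratio on each of the 15 arrays (x axis, by comparison and replicate) of *Tubb6* (red point) beside the range (blue bar) and median (blue dash) of the 5 young-neuron genes. *Tubb6* sits under the bar on the 6 hyperoxia arrays and 1.54 and 1.62 above the median on average in the comparisons with P13-O.

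*Tubb2b*, a beta-tubulin of migrating and newly born neurons, had the highest ratio of young to adult retina among the members. In P9-N/P30-N its 2 probes read 1.36, 1.38 and 1.45 and 1.70, 1.85 and 1.76, with means of 1.40 (SE 0.11) and 1.77 (SE 0.13), which are 2.64-fold and 3.41-fold. Both probes were far above 0 with little spread, and the second read higher than the first on every array by 0.31 to 0.47. In P13-O/P9-N they read -0.64, -0.68 and -0.84, and -0.94, -0.67 and -1.14. In the direction taken, P13-O held less *Tubb2b* mRNA than P9-N on all 3 arrays.

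*Tubb2a*, its neighbor on chromosome 13, parted from it in hypoxia. In P13-O/P13-N *Tubb2a* read -0.51, -0.50 and -0.15 (mean -0.39, SE 0.13), whereas the first *Tubb2b* probe read 0.58, 0.31 and 0.34 (mean 0.41, SE 0.11) and the second 0.63, 0.39 and 0.18 (mean 0.40, SE 0.13). The signs of the neighbors were opposite on all 3 arrays, with *Tubb2a* under the first *Tubb2b* probe by 0.49 to 1.09. In P9-N/P30-N both were high, *Tubb2a* at 1.05, 1.20 and 1.29 (mean 1.18, SE 0.13), a distance of -0.22. At P12, *Tubb2a* had a mean of 0.17 (limma adjusted p = 0.439) and the *Tubb2b* probes 0.33 and 0.29 (adjusted p = 0.0742 and 0.182), and all 3 probes were above 0 on all 3 arrays without passing the test.

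*Tuba1a*, the main alpha-tubulin of growing neurons, was nearly flat in OIR. It read -0.30, 0.01 and 0.23 in P13-O/P13-N (mean -0.02, SE 0.10), on both sides of 0. In P9-N/P30-N it read 1.41, 1.37 and 1.37 (mean 1.39, SE 0.10, 2.61-fold), the tightest replicates of the set in that comparison, and in P13-O/P9-N it read -0.76, -0.67 and -0.60 (mean -0.67, SE 0.10). The means in oxygen were 0.03 at P8 (limma adjusted p = 0.937) and 0.14 at P12 (adjusted p = 0.451), and the 3 arrays at P8 did not share a sign.

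*Tuba1c*, a broadly expressed alpha-tubulin from the same cluster, behaved differently from *Tuba1a*. In P13-O/P13-N it read 0.71, 0.37 and 0.20 (mean 0.43, SE 0.09), above 0 on each array and the second highest mean of the members. It was close to 0 in P13-O/P9-N at 0.05, -0.13 and -0.05, and moderately higher in P9-N than in P30-N at 0.60, 0.66 and 0.30 (mean 0.52, SE 0.09). In oxygen it read 0.10, 0.06 and 0.14 at P8 (limma adjusted p = 0.747) and -0.09, -0.12 and -0.21 at P12 (adjusted p = 0.397).

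*Tuba4a*, an alpha-tubulin of the mature brain whose gene does not encode the usual terminal tyrosine, had the sign opposite to all other members in maturation. Its ratio in P9-N/P30-N was -1.64 and -1.52 on the 2 arrays with a value (mean -1.58, SE 0.10, 2.99-fold lower at P9). It was the only member below 0 in that comparison. In P13-O/P9-N it read 0.63, 0.44 and 0.53 (mean 0.53, SE 0.08), and in P13-O/P13-N -0.50, -0.38 and -0.36 (mean -0.41, SE 0.08). P13-O retina held less *Tuba4a* mRNA than P13-N retina on every array and, in the direction taken, more than P9-N retina. At P8 only 1 array had a value (0.08), and at P12 the mean was -0.14 (limma adjusted p = 0.351).

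*Tubb3*, the neuron-specific beta-tubulin, and *Tubb5*, which dividing progenitors and neurons share, differed little between OIR and normal retina. *Tubb3* read -0.29, -0.13 and -0.12 in P13-O/P13-N (mean -0.18, SE 0.08), and the *Tubb5* probes had means of 0.06 (SE 0.11) and -0.16 (SE 0.08). Maturation separated them: in P9-N/P30-N *Tubb3* read 0.60, 0.48 and 0.42 (mean 0.50, SE 0.08), while *Tubb5* had means of 1.04 and 1.01. In P13-O/P9-N *Tubb3* was at -0.60 (SE 0.08) and *Tubb5* at -0.68 (SE 0.11) and -0.56 (SE 0.08), below 0 on each array. The means of these 3 probes in oxygen lay between -0.03 and 0.21, and the lowest limma adjusted p was 0.505.

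*Tubg1*, which nucleates microtubules and is needed in every dividing cell, had the smallest difference between P9-N and P30-N among the members. It read 0.31, 0.35 and 0.25 in P9-N/P30-N (mean 0.30, SE 0.06), -0.21, -0.36 and -0.24 in P13-O/P9-N (mean -0.27, SE 0.06), and -0.12, -0.07 and -0.09 in P13-O/P13-N (mean -0.09, SE 0.06). Its sign was shared by the 3 arrays in each of these comparisons.

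In P9-N/P30-N, 7 of the 11 probes passed as higher and 1 as lower, where 5.64% of all probes passed as higher and 6.4% as lower. The 7 were *Tuba1a*, *Tubb2a*, both probes of *Tubb2b*, both of *Tubb5*, and *Tubb6* with 1.36, 1.66 and 1.31 (mean 1.44, SE 0.15), and the 1 lower was *Tuba4a*. The choice of members used this comparison, so nothing is read from the count. By mean the order ran from *Tubb2b* (1.77 and 1.40) and *Tubb6* (1.44) through *Tuba1a* (1.39), *Tubb2a* (1.18), *Tubb5* (1.04 and 1.01), *Tuba1c* (0.52), *Tubb3* (0.50) and *Tubg1* (0.30) to *Tuba4a* (-1.58). In that order *Tubb6*, the first *Tubb2b* probe and *Tuba1a* overlapped on their arrays, as did *Tubb2a* with *Tubb5* and *Tuba1c* with *Tubb3*, while *Tuba1a* and *Tubb2a* did not. These arrays had a wider spread of ratios than the rest, and scaled to equal spread the values shrank, for example to 1.06 for *Tubb6* and 1.03 for *Tuba1a*.

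In P13-O/P9-N, 5 probes passed as lower and 1, *Tubb6*, as higher, where 0.897% of all probes passed as lower and 1.79% as higher, and nothing is read from the count, since the comparison likely shares pools with those that chose the members. The 5 were *Tuba1a*, both *Tubb2b* probes, *Tubb3* and the first *Tubb5* probe, and without replicate 3 the count was 3, with *Tubb3* and *Tubb5* no longer passing. Without the fold cutoff 2 passed as higher and 8 as lower, beside 4.55% and 3.96% of all probes. *Tubb6* read 1.24, 0.84 and 0.64 (mean 0.90, SE 0.15). In the direction taken, its mRNA was higher in P13-O than in P9-N, while the young-neuron genes were lower in P13-O than in P9-N.

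The 2 comparisons with P13-O also gave an indirect value for normal maturation from P9 to P13, the difference of the direct ratios, with P13-O as the shared reference. P13-N over P9-N came to -1.13 (SE 0.15) and -1.31 (SE 0.18) for *Tubb2b*, -0.65 (SE 0.15) for *Tuba1a*, -0.74 (SE 0.15) and -0.40 (SE 0.11) for *Tubb5*, -0.47 (SE 0.13) for *Tuba1c* and -0.42 (SE 0.11) for *Tubb3*. *Tuba4a* ran upward at 0.95 (SE 0.11), and *Tubb2a* was within its error at -0.15 (SE 0.18). *Tubb6* came to -0.48 (SE 0.21), and to -0.75 without the third P13-O/P13-N array. These values rest on the direction taken for P13-O/P9-N and carry no test. Their SEs treat the arrays as independent, although the 2 comparisons likely share P13-O pools.

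**Figure D3:**
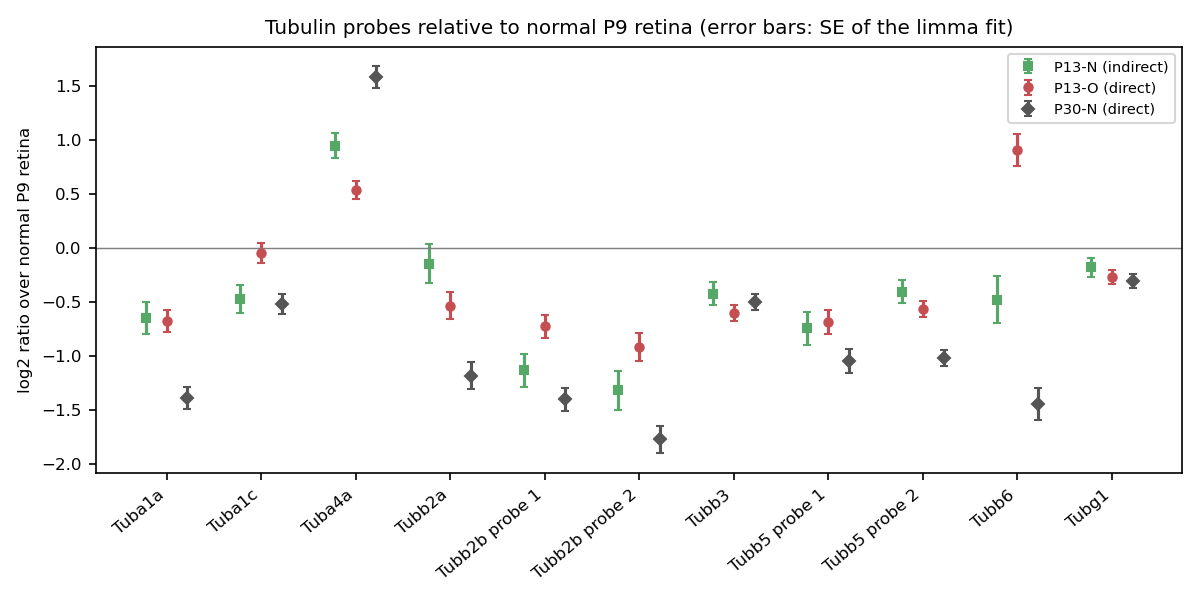
Log2 ratio over P9-N (y axis) of each tubulin probe (x axis) in P13-N (green, indirect), P13-O (red, direct) and P30-N (grey, direct), with bars of 1 SE. *Tubb6* in P13-O, at 0.90, is the only beta-tubulin value above 0, and *Tuba4a* is above 0 in all 3 retinas.

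Marker genes of the cell types a retina holds were read on the same arrays, since in bulk tissue fewer cells of a type and less RNA per cell cannot be told apart. Of the 15 endothelial genes 12 were tested at P12, and 8 were lower and 0 higher, among them the junction genes *Cdh5* (-1.07) and *Esam* (-0.74). Their median on the 3 arrays was -0.76, -0.70 and -0.59 at P12, and -0.40, -0.28 and -0.44 at P8, where *Tubb6* was also below 0. In P13-O/P13-N the endothelial median was still below 0, at -0.24, -0.17 and -0.35, on the arrays with *Tubb6* at 1.58, 1.73 and 0.84. The part of the endothelial genes in the *Tubb6* values was not tested.

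Reactive glia genes had medians of 1.09, 0.90 and 0.32 in P13-O/P13-N, with replicate 3 the lowest as for *Tubb6*, and 4 of 12 tested were higher and 0 lower. These 4 were the intermediate filament genes *Vim* (1.11) and *Nes* (0.66), *Anxa2* (1.14) and *S100a6* (0.74), and the glial filament gene *Gfap* was at 1.03 without passing. At P8 their medians were -0.20, 0.04 and -0.17, and at P12 0.06, 0.00 and -0.05. *Anxa2* was the 1 of 7 tested that was lower at P8 (-0.70) and the 1 of 11 at P12 (-0.62), with 0 higher at both ages. In P13-O/P13-N, 2 of 10 microglia genes were higher, 1 of 7 pericyte and smooth muscle genes was higher and 1 lower, 1 of 6 dividing-cell genes was higher, and 0 of 11 ganglion and amacrine genes passed. The part of these cell types in the tubulin values was not tested.

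**Figure D4:**
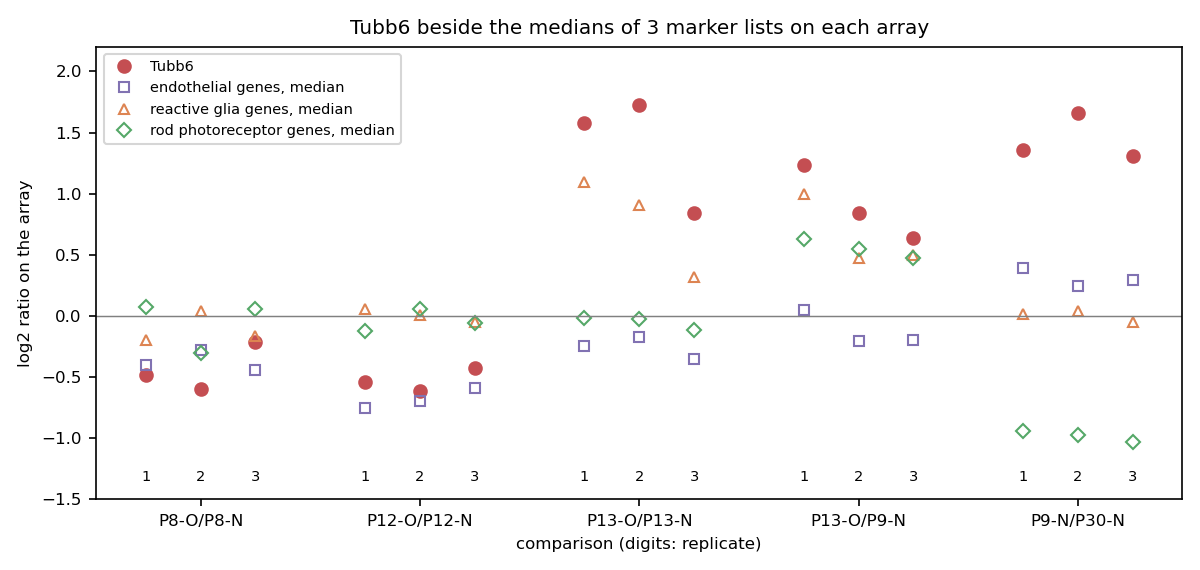
Log2 ratio on each of the 15 arrays (x axis, by comparison and replicate) of *Tubb6* (red points) and the median of endothelial (squares), reactive glia (triangles) and rod (diamonds) genes. *Tubb6* and the endothelial median are both below 0 in hyperoxia, and in P13-O/P13-N *Tubb6* and the reactive glia median are above 0 with the endothelial median below it.

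For maturation the rod median was -0.94, -0.98 and -1.04 in P9-N/P30-N and 0.63, 0.55 and 0.47 in P13-O/P9-N, the sign of *Tuba4a* and the reverse of the young-neuron genes. Ganglion and amacrine genes, of neurons born before rods, had 2 of 11 higher and 2 lower in P9-N/P30-N: the transcription factor genes *Isl1* (1.40) and *Pou4f1* (0.93) were higher, and the mature neuron genes *Thy1* (-0.77) and *Nefh* (-0.67) were lower. How far the share of rod RNA moves the tubulin ratios was not tested.

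The probes that ran most like *Tubb6* over the 15 arrays, among 7862 with all values, were those of *Ldha* (Pearson r = 0.963), *Tagln2* (0.957), *Egfl7* (0.950), *Cavin3* (0.945) and *Mcam* (0.932). *Tagln2* had the nearest size, with a mean of 1.11 in P13-O/P13-N and 1.12 in P9-N/P30-N, whereas *Egfl7*, one of the endothelial genes above, was at 0.12 and 0.36. For the first *Tubb2b* probe they were *Rcc2* (r = 0.971), *Tmem86a* (0.969), *Jpt1* (0.962), *C1qtnf12* (0.961) and *Sat1* (0.959), all with a mean of at least 1.27 in P9-N/P30-N. The arrays may share pools and 3 of them come from each comparison, so these correlations mostly order the comparisons.

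Of 10 other tubulin genes 7 had a probe and 4 were tested at P12, where 2 fell and 0 rose. *Tubb4a*, a beta-tubulin of mature neurons and myelinating cells, read -0.44, -0.51 and -0.87 (mean -0.61, SE 0.10, n = 3, limma adjusted p = 0.00634), though without replicate 3 the mean was -0.47 and the adjusted p 0.0635. *Tube1*, an epsilon-tubulin of the centriole, read -0.95, -0.38 and -1.02 (mean -0.79, SE 0.21, adjusted p = 0.0408), and lost the call without replicate 1 or 3 (adjusted p = 0.220 and 0.217). A separate fit of P12 gave both an adjusted p of 0.0739, and SAM called neither. *Tuba8* was lower in P9-N than P30-N by its second probe (mean -0.70, SE 0.13, adjusted p = 0.000710), and 0 of these genes passed at P8, in P13-O/P13-N or in P13-O/P9-N.

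*Tubg2*, the neighbor of *Tubg1* on chromosome 11 with 0 genes between them, had the other sign in maturation. It read -0.55, -0.27 and -0.46 in P9-N/P30-N (mean -0.43, SE 0.07, limma adjusted p = 0.000531), past the adjusted p but short of 1.5-fold, where *Tubg1* was at 0.30.

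Stathmins and doublecortin, which bind tubulin or stabilize microtubules in growing neurons, had 3 of 7 tested genes higher and 0 lower in P9-N/P30-N. Like the other lists of microtubule genes here, this list was drawn up with earlier results of these data known. The adjusted p-values of genes on these lists, the other tubulin genes included, are therefore descriptions, and nothing more is read from them. Doublecortin (*Dcx*) was higher by 1.77 and 1.85 on its 2 probes (limma adjusted p = 3.8e-07 and 3.01e-07), and the stathmins *Stmn2* and *Stmn4* by 1.03 each. *Dcx* was the 1 of 7 lower in P13-O/P9-N, at -0.81 and -0.74, and 0 of 7 passed in any OIR comparison with an age-matched control.

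Among the tubulin-modifying enzymes, *Vash2*, a tyrosine carboxypeptidase of tubulin, was 1 of 13 higher in P9-N/P30-N, by 1.85 (SE 0.14, limma adjusted p = 2.7e-07), and the polyglutamylase gene *Ttll11* was the 1 lower (-0.72). *Vash2* was also the 1 of 16 lower in P13-O/P9-N (-0.90, adjusted p = 0.000890). Of the folding factors, *Cct2* of the CCT chaperonin was higher (0.69) and the cofactor *Tbcc* lower (-0.71) among 16 tested in P9-N/P30-N, and 0 passed elsewhere. In the gamma-tubulin ring list 1 of 8 was higher in P9-N/P30-N (*Mzt2*, 0.71), and *Akap9* was lower on 1 of its 2 probes in P13-O/P9-N (-0.97, and 0.04 on the other), a call lost without any 1 of the arrays. Scaled to equal spread, *Cct2* (0.50), *Tbcc*, *Ttll11* and *Tuba8* (-0.52 each) came short of the fold cutoff in the same comparison of P9-N with P30-N. These 3 lists had 0 genes past the threshold in the 3 comparisons of OIR retina with its age-matched control.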

How the data were processed

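The deposited values are the authors' normalized log2 ratios of dye-swapped Phalanx Mouse Whole Genome OneArray hybridizations. The normalization, background correction and rule for blank values are not given in the sources used here, and the number of arrays limits the precision. Ratios were taken as OIR over normal, after the ratios the paper prints for other genes. The P30-over-P9 values were negated. The table held 0 other sample columns. Of the probes, 21020 had 1 symbol in the platform annotation.

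A linear model (limma 3.58.1, R 4.3.3) gave each comparison its own mean and used all 15 arrays for the spread of a probe. Each mean was tested against 0 where at least 2 of 3 arrays had a value, with Benjamini-Hochberg adjustment within the comparison. The threshold was an adjusted p under 0.05 together with a 1.5-fold change or more. A gene on a list passed when 1 of its probes did. The SE is that of the fit. The procedure was tested on simulated data. SAM was a one-class statistic over 8 sign flips at a false discovery rate of 1%.

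All probes of the members were named. From the other lists, up to 4 genes past the threshold were named, and any of the other tubulin genes. Members, lists and tests were chosen with earlier results of these data known. Pools were biological replicates from different litters. The replicate numbers were not used to pair the arrays in the main fit. Deviations from the comparison means correlated at -0.26 to 0.25 over 30 pairs of the same number, and 5 pairs exceeded 0.1. The highest, 0.25 and 0.23, were between arrays of P13-O/P13-N and P13-O/P9-N. Protein sequences were not used here. Plots were made in Python 3.11.15 (matplotlib 3.10.9).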

Additional observations from a re-analysis of the deposited data

Results flagged for a closer look

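Some probes were on one side of 0 on all 3 arrays of one OIR comparison and on the other side on all 3 arrays of another. The largest such differences were those of *Tubb6*, at 1.82 between P13-O/P13-N and P8-O/P8-N and 1.91 between P13-O/P13-N and P12-O/P12-N. *Tuba1c* differed by 0.57 and *Tubb2a* by -0.56 between P13-O/P13-N and P12-O/P12-N. Between P13-O/P13-N and P8-O/P8-N the difference was -0.29 for *Tubb3*, -0.30 for the second *Tubb5* probe and -0.14 for *Tubg1*. These differences hold the comparison used to choose the members and were not tested. Between P12-O/P12-N and P8-O/P8-N, *Tuba1c* differed by -0.24 (limma adjusted p = 0.406) and *Tubg1* by -0.20 (adjusted p = 0.329), and neither passed the test.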

How the results depend on the processing

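Without a fold cutoff, 2 tubulin probes passed as higher and 1 as lower in P13-O/P13-N, and 2 as higher and 8 as lower in P13-O/P9-N. A separate fit of each comparison left 0 higher in P13-O/P13-N. SAM left 0 higher in P13-O/P13-N, 0 higher and 3 lower in P13-O/P9-N, and 0 lower in P9-N/P30-N. The last count was also 0 when values on all 3 arrays were required. Neither SAM nor that setting tested *Tuba4a*, the 1 lower probe, since it had 2 values. Leaving out 1 array gave 3 to 6 lower in P13-O/P9-N (3 without replicate 3) and 0 to 1 lower in P9-N/P30-N. It was 0 without replicate 2 or 3, where *Tuba4a* had too few values left to be tested. With the replicate number as a block, 0 tubulin probes were higher and 0 lower at P8 and P12, 1 and 0 in P13-O/P13-N, 1 and 5 in P13-O/P9-N and 7 and 1 in P9-N/P30-N, as without it. Deviations of same-numbered arrays of P13-O/P13-N and P13-O/P9-N correlated at 0.25, -0.04 and 0.23, and whether these arrays share pools was not tested. Of 1283 single values and list counts under the alternatives, 45 moved beyond the spread of the arrays or by over 1.5 times and 0 reversed a call. Of 1233 values compared, 31 had another sign without passing the threshold in either setting. Apart from the setting without a fold cutoff, the shares of all probes under these settings are not given here. Nothing is read from the tubulin counts above.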
